A study of Saccharomyces cerevisiae with 34 samples.

Results

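The RNA of budding yeast lacking *PSH1* was compared with that of WT cells in 12 of the 34 RNA-seq libraries of the series, 6 on each side. The members were chosen by genotype alone. They were every library of *psh1Δ* (*psh1::KAN*) and every library of WT, sampled before galactose (t0, 0 h) and after 2 h in galactose (t2). All cells were asynchronous haploid *MATa* cultures of the W303 background grown in YEP with lactic acid, and galactose was added to the same culture after the t0 sample. The study's strain list gives all of them the same marker mutations (in *URA3*, *LEU2*, *HIS3*, *TRP1*, *ADE2* and *CAN1*), the *bar1-1* allele, *bud4* and *RAD5*. Neither genotype carried a *CSE4* or H3 gene under the *GAL* promoter. Each side held 3 strains, one in each of batches 1, 2 and 3, so the 12 libraries came from 6 strains, and t0 and t2 of a strain are not independent of each other. The p-values below therefore treat 6 pairs of libraries as 6 blocks although they come from 3 pairs of strains. For a comparison in other strains, the t0 libraries of *psh1Δ pGAL-3Flag-CSE4* and *pGAL-3Flag-CSE4* in batches 2 and 3 were used (4 libraries, taken before induction). Both of these genotypes carried the construct with a *LEU2* marker. For the *psh1Δ pGAL-3Flag-CSE4* strain of batch 3 the label gives *psh1::KAN* and the strain list *psh1::HYG*.

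Psh1 is a ubiquitin ligase that recognizes CENP-A (Cse4), the histone H3 variant of centromeric nucleosomes, and marks molecules outside the centromere for proteolysis. The chaperone Scm3 delivers CENP-A to the centromere, and the histone chaperone FACT (Spt16 and Pob3) helps Psh1 reach CENP-A in nucleosomes. The comparison asked what loss of Psh1 does to transcription when CENP-A is made from its own gene.

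The 12 libraries held between 5589141 and 6678319 counts on the 6209 genes of the tables, with a median of 5954326. Replicate libraries of a group differed by more than sampling noise, with a chi-square of 6.62 to 62.8 per degree of freedom over 12 pairs of libraries. Galactose responded as labelled in both genotypes. *GAL1*, which encodes galactokinase, was at 13957, 13957 and 15046 CPM (counts scaled to library size after TMM normalization) in the *psh1Δ* libraries at t2 and at 13352, 14813 and 14151 CPM in those of WT. Of the cell type markers, the *MATα*-specific receptor gene *STE3* was at most 1.26 CPM in *psh1Δ* and 0.704 CPM in WT, and the pheromone gene *MF(ALPHA)2* at most 9.15 and 7.09 CPM. *SAG1*, the α-agglutinin gene, was at 30.7 to 58.4 CPM in *psh1Δ* and 45.2 to 53.9 CPM in WT, so this marker was not absent. Reads were not assigned by strand. In bulk RNA, fewer cells of a type and less RNA per cell cannot be told apart.

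At t0, the libraries of batch 3 stood apart from those of batches 1 and 2 in both genotypes. Replicate pairs with t0 of batch 3 had a chi-square of 52.8 to 62.8 per degree of freedom. The other t0 pairs had 6.62 in WT and 13.3 in *psh1Δ*. Each combination of time and batch therefore had its own block. An additive batch term cannot fit a batch difference of unlike size at t0 and t2. Several strains stood apart as well. The *psh1Δ* strains of batches 1 and 2 had 0 counts for *BAR1*, and the *psh1Δ* strain of batch 1 had raised counts over chromosome I, both described below. The t2 pair of batch 3 showed a trend with gene length that the other pairs had less of. Over 5868 genes, Spearman's rho between the length of a gene and its difference (*psh1Δ* minus WT) was -0.28 in that pair and lay between -0.13 and 0.15 in the other 5 pairs, as a description across genes. Genes up to 603 bp had a median log2 difference of 0.11 in that pair and genes from 2082 bp a median of -0.10.

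*PSH1* itself (YOL054W, SacCer3 chromosome XV, 228614 to 229834) had 1 to 3 counts in each *psh1Δ* library and 165 to 241 in each WT library. The sums were 12 counts in *psh1Δ* and 1266 in WT, a 106-fold lower level with an exact 95% interval of 60.25 to 205 that covers counting error only. The fitted log2 fold change was -6.62 (standard error 0.16, edgeR quasi-likelihood adjusted p = 1.62e-12). The deleted gene thus matched the label in all 12 libraries. None of the 6 other genes within 5 kb had an unadjusted p under 0.05. Among them *SPE2*, which encodes an enzyme of polyamine synthesis, had a log2 difference of -0.10, *AIM39* of -0.04 and the stress gene *DDR2* of 0.03.

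Few genes were called besides *PSH1*. With each combination of time and batch as a block, 10 of 6209 genes (0.161%) had an edgeR adjusted p under 0.05 and a change of at least 1.5-fold. Of these, 5 rose (0.0805%): *VID28*, *AGA2*, *HXT13*, *ASG7* and *ENA1*. The other 5 fell (0.0805%): *PSH1*, *BNA7*, *PRM7*, *DCG1* and *IMD2*. Without the minimum change, 29 genes (0.467%) passed, 20 higher (0.322%) and 9 lower (0.145%). An unadjusted p of less than 0.05 was reached by 743 genes (12%). These calls rested on the block. When the batch was left out of the fit, or entered as a term added to time, *PSH1* was the only gene called, and when t0 and t2 were summed for each strain the calls were *PSH1*, *BNA7* and *DCG1*. On these sums, without the minimum change, 3 genes were lower at an edgeR adjusted p below 0.05, and none of the 20 higher genes passed.

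**Figure D1:**
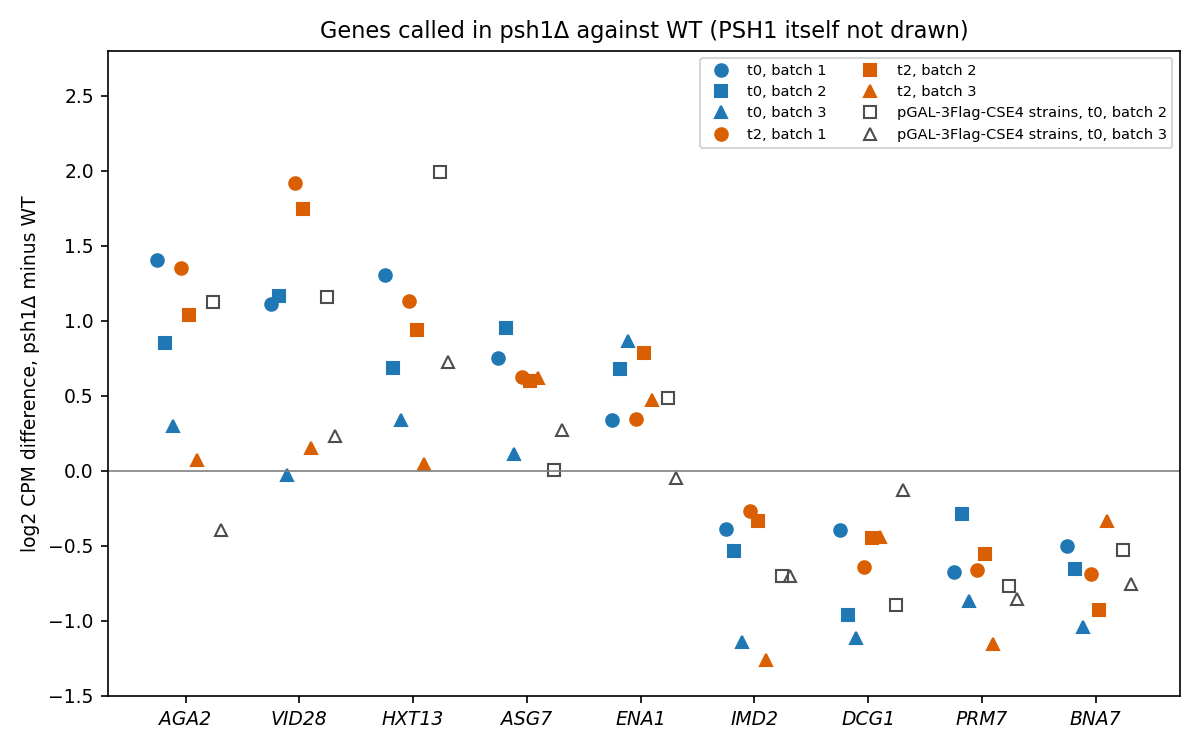
Log2 CPM difference (*psh1Δ* minus WT) of the 9 called genes other than *PSH1* in each pair of libraries of the same time and batch. Filled symbols are the 6 pairs of the comparison (blue t0, orange t2) and open symbols the pairs of *psh1Δ pGAL-3Flag-CSE4* and *pGAL-3Flag-CSE4* at t0. *BNA7*, *PRM7*, *DCG1* and *IMD2* were below 0 in all 6 pairs, and the batch 3 pairs of *VID28* were at -0.03 and 0.15.

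Among the genes that fell, *BNA7* (YDR428C, chromosome IV, 1323454 to 1324239) encodes formylkynurenine formamidase, an enzyme of NAD synthesis from tryptophan. Its levels at t0 were 32.2, 29.4 and 18.9 CPM in *psh1Δ* (batches 1, 2 and 3) and 45.8, 46.5 and 39.4 CPM in WT. At t2 they were 24.8, 21.2 and 28.7 CPM in *psh1Δ*, against 40.2, 40.8 and 36.3 CPM in WT. Every *psh1Δ* library was below every WT library, at either time. The log2 fold change was -0.69 (standard error 0.09, edgeR adjusted p = 0.00482), and *BNA7* kept its call in 13 of 16 alternatives. Without batch 2 the log2 fold change was -0.64 with an edgeR adjusted p of 0.0674. Its neighbours *RPN9* and *TIF35* had log2 differences of 0.08 and 0.05.

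*BNA2* encodes the dioxygenase that opens the same pathway. It was at 9.49, 16.7 and 10.1 CPM in *psh1Δ* and 19.5, 18.4 and 17.6 CPM in WT at t0. The levels at t2 were 9.84, 12.5 and 10.4 CPM in *psh1Δ* and 11.3, 16.5 and 15.7 CPM in WT. It was lower in all 6 pairs but did not pass (log2 difference -0.53, edgeR adjusted p = 0.0793). Of the 15 measured genes of NAD synthesis, 1 was called lower and none higher, and 7 of them were lower and 2 higher at an unadjusted p of less than 0.05, where all genes gave 5.43% lower and 6.54% higher. Without batch 1 the lower genes numbered 3. The median over the list was -0.14, against -0.0027 over all genes. The nicotinamidase gene *PNC1* had a log2 difference of 0.23, of the opposite sign to *BNA2*, that did not pass.

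*PRM7* (YDL039C, chromosome IV, 381985 to 384081), a pheromone-regulated gene for a membrane protein, was at 36.0, 45.5 and 31.9 CPM in *psh1Δ* at t0 and 57.9, 55.7 and 58.6 CPM in WT. At t2 it was at 33.8, 30.8 and 19.4 CPM in *psh1Δ* and 53.8, 45.4 and 43.7 CPM in WT. At each time the *psh1Δ* values lay below all WT values, and the log2 fold change was -0.69 (standard error 0.09, edgeR adjusted p = 0.00482). Without batch 3 it was -0.55, below the minimum change. The next gene on the chromosome, *BSC1* (YDL037C, 384601 to 385587), was lower too. *BSC1* was at 20.4, 17.1 and 19.7 CPM in *psh1Δ* and 28.2, 24.3 and 33.5 CPM in WT at t0, and at 14.0, 12.2 and 11.1 CPM in *psh1Δ* and 20.5, 15.3 and 16.4 CPM in WT at t2. With a log2 difference of -0.54 it passed the limit on adjusted p (edgeR, 0.0145) but not the minimum change.

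Also in this stretch was *SIR2* (YDL042C, 376757 to 378445), which encodes the NAD-dependent histone deacetylase of silent chromatin. *SIR2* was at 51.3, 49.9 and 48.5 CPM in *psh1Δ* and 65.5, 60.6 and 63.2 CPM in WT at t0, and at 43.7, 41.3 and 39.3 CPM in *psh1Δ* and 59.3, 42.6 and 58.1 CPM in WT at t2. Its log2 difference was -0.35 (standard error 0.07, edgeR adjusted p = 0.0458), below the minimum change, with the same sign in all 6 pairs. *NAT1*, a subunit of the main N-terminal acetyltransferase, lies between *SIR2* and *PRM7* and had a log2 difference of -0.07 (edgeR adjusted p = 0.624). The flanking genes *PRP11* and *PUS9* were at -0.06 and -0.05. The stretch was examined after its values were seen. Of the 50-base windows of *BSC1*, 85.6% were unique in the genome, and of *PRM7* 97.8%, so a few reads of *BSC1* could have been assigned elsewhere.

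**Figure D2:**
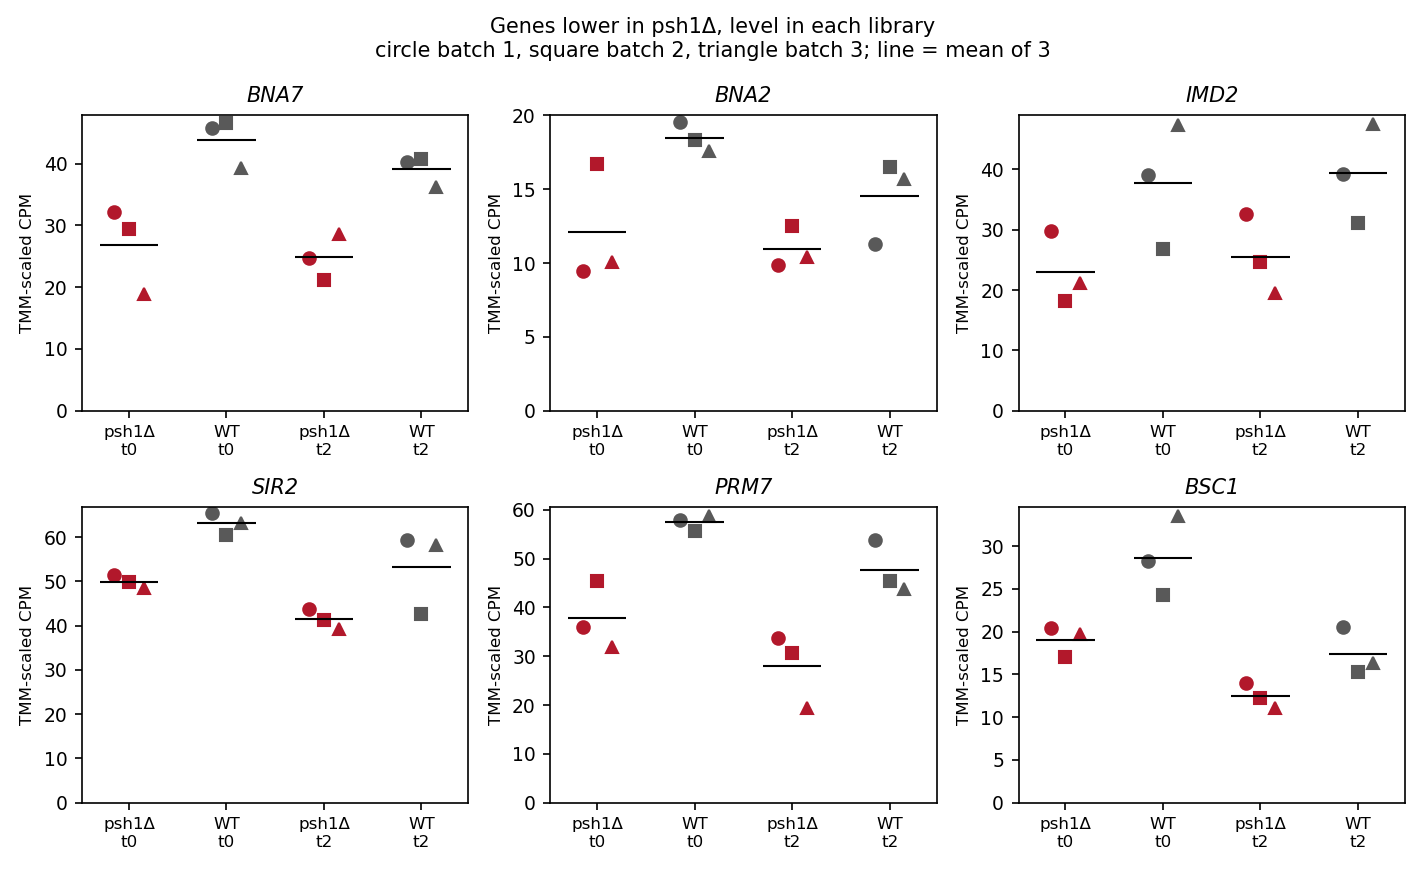
TMM-normalized CPM of 6 genes in each library, with *psh1Δ* in red left of WT in grey at t0 and at t2, symbols for batches and lines for the mean of 3 libraries. *BNA7* and *PRM7* were called lower, *SIR2* and *BSC1* passed on adjusted p alone, and *BNA2* did not pass.

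*IMD2* (YHR216W, chromosome VIII, 554396 to 555967) encodes an IMP dehydrogenase, which catalyses the committed step of guanine nucleotide synthesis. It was at 29.7, 18.3 and 21.2 CPM in *psh1Δ* and 39.1, 26.7 and 47.3 CPM in WT at t0, and at 32.5, 24.6 and 19.5 CPM in *psh1Δ* and 39.3, 31.1 and 47.6 CPM in WT at t2. The ranges overlapped, but within each batch and time *psh1Δ* was lower, most so in batch 3 (log2 differences of -1.14 and -1.26). The log2 fold change was -0.65 (standard error 0.12, edgeR adjusted p = 0.0397), and it was not called without batch 2 (-0.75, edgeR adjusted p = 0.109) or batch 3 (-0.38, edgeR adjusted p = 0.0599). Of its 50-base windows, 66.3% occur once in the genome, so its level is uncertain. Its paralogs *IMD3* and *IMD4* had log2 differences of -0.03 and -0.13 and were not called.

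*DCG1* (YIR030C, chromosome IX, 412036 to 412770), a gene of unknown function beside the allantoin utilization genes, was at 12.7, 10.3 and 12.3 CPM in *psh1Δ* and 16.9, 20.6 and 27.4 CPM in WT at t0. At t2 it was at 17.1, 15.3 and 16.7 CPM in *psh1Δ* and 27.0, 21.1 and 22.8 CPM in WT. At both times all *psh1Δ* values lay below all WT values, and the log2 fold change was -0.68 (standard error 0.11, edgeR adjusted p = 0.0168). It was not called without batch 1 (-0.75, edgeR adjusted p = 0.0504) or batch 2 (-0.66, edgeR adjusted p = 0.0889). Its neighbour *DAL2*, the allantoicase gene, was lower in all 6 pairs by a small amount (log2 difference -0.16) and did not pass. Over the 28 measured genes of allantoin use and nitrogen catabolite repression, *DCG1* was the only call and the median was -0.06. An unadjusted p under 0.05 was reached by 3 lower genes and no higher gene (5.43% and 6.54% of all genes).

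Of the genes that rose, *HXT13* (YEL069C, chromosome V, 21537 to 23231) belongs to the hexose transporter family. At t0 it was at 21.8, 22.3 and 88.0 CPM in *psh1Δ* and 8.50, 13.7 and 69.6 CPM in WT. At t2 its levels were 42.7, 49.0 and 14.9 CPM in *psh1Δ* and 19.2, 25.3 and 14.4 CPM in WT. The difference was thus carried by batches 1 and 2, and the t2 pair of batch 3 differed by 0.05 on the log2 scale. Over both times it was 0.74 (standard error 0.13, edgeR adjusted p = 0.0343), and it was not called without batch 1 (0.53, edgeR adjusted p = 0.167) or batch 2 (0.69, edgeR adjusted p = 0.158). Its unique windows made up 68.2%, so reads of close relatives could have been counted on it.

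Another member of that family, *HXT10*, had the largest fitted fall of the list, -2.72, but did not pass (edgeR adjusted p = 0.0542). It was at 24.8 and 29.6 CPM in the WT strain of batch 3 at t0 and t2 and between 0.298 and 1.79 CPM in the other 10 libraries, so 1 WT strain made the value. Of the 19 measured hexose transport genes, *HXT13* was the only call. At an unadjusted p of less than 0.05, 5 were higher and 3 lower (6.54% and 5.43% of all genes).

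*ENA1* (YDR040C, chromosome IV, 535192 to 538467), which encodes a sodium pump, was at 22.0, 24.5 and 29.1 CPM in *psh1Δ* and 17.3, 15.1 and 15.7 CPM in WT at t0, and at 28.4, 37.1 and 23.5 CPM in *psh1Δ* and 22.3, 21.3 and 16.8 CPM in WT at t2. At each time the *psh1Δ* libraries were above all WT libraries. The log2 fold change was 0.59 (standard error 0.09, edgeR adjusted p = 0.0145), just past the minimum, and it was under the minimum without batch 2 (0.51) or batch 3 (0.55). Tandem copies of this gene are nearly identical, and only 11.5% of its windows were unique, so the change is one of the reads assigned to *ENA1* and not surely of this copy.

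The remaining rises were those of *VID28*, *AGA2* and *ASG7*, and the first of them lies beside genes with almost no counts in part of the *psh1Δ* strains. *BAR1* (YIL015W, chromosome IX, 322342 to 324105) encodes the secreted protease with which *MATa* cells degrade the pheromone α-factor. Its transcript was at 0 counts in all 4 *psh1Δ* libraries of batches 1 and 2, against 357 to 637 counts in the WT libraries of those batches. Against a floor of 3 counts over the 4 libraries this is at least 631-fold lower. In the *psh1Δ* strain of batch 3, *BAR1* had 463 counts at t0 and 445 at t2. The adjacent *SNL1* and YIL014C-A had 3 counts and 1 count in the same 4 *psh1Δ* libraries, against 1555 and 418 in the 4 WT libraries. The flanking genes *RPL2B* and *MNT3* had log2 differences of -0.0043 and 0.02. The strain list gives the *bar1-1* allele to all of these strains.

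*VID28* (YIL017C, chromosome IX, 318200 to 320965), a subunit of the GID ubiquitin ligase that degrades gluconeogenic enzymes, lies on the other side of *SNL1*. It was at 153, 159 and 65.9 CPM in *psh1Δ* and 70.7, 70.5 and 67.4 CPM in WT at t0, and at 221, 208 and 61.0 CPM in *psh1Δ* and 58.0, 61.6 and 54.9 CPM in WT at t2. The strains of batches 1 and 2 were high and that of batch 3 was at the WT level. The fitted log2 fold change of 1.06 (standard error 0.20, edgeR adjusted p = 0.0397) is an average over these unlike strains, and it was not called without batch 1 (0.81, edgeR adjusted p = 0.257) or batch 2 (0.83, edgeR adjusted p = 0.267). *BAR1* was also at 0 counts in *psh1Δ pGAL-3Flag-CSE4* of batches 1, 2 and 3 and in the *pGAL-3Flag-CSE4* strain of batch 3, which has an intact *PSH1*, and *VID28* was at 138 CPM at t0 in that strain and at 64.5 CPM in the *pGAL-3Flag-CSE4* strain of batch 2.

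*AGA2* (YGL032C, chromosome VII, 436570 to 436833) encodes the adhesion subunit of a-agglutinin, with which *MATa* cells bind their mating partner. Its levels were 33.6, 22.5 and 16.9 CPM in *psh1Δ* and 12.4, 12.2 and 13.7 CPM in WT at t0. At t2 they were 32.1, 29.1 and 13.6 CPM in *psh1Δ* and 12.2, 13.9 and 13.0 CPM in WT, so that at t2 the batch 3 library lay within the WT range. The log2 fold change was 0.91 (standard error 0.15, edgeR adjusted p = 0.0255), and it was not called without batch 1 (0.61, edgeR adjusted p = 0.256) or batch 2 (0.87, edgeR adjusted p = 0.134). *ASG7*, an a-specific gene whose product acts on pheromone signalling in zygotes, rose by 0.63 (standard error 0.13, edgeR adjusted p = 0.0489) and was higher in all 6 pairs, by 0.11 to 0.95. *ASG7* kept its call in 6 of 16 alternatives, and lost it without batch 1 (0.59, edgeR adjusted p = 0.436) or batch 2 (0.56, edgeR adjusted p = 0.228).

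*AGA1*, the anchor subunit of a-agglutinin, did not pass. Its levels were 111, 74.9 and 52.4 CPM in *psh1Δ* and 53.4, 48.6 and 58.5 CPM in WT at t0, and 114, 107 and 24.2 CPM in *psh1Δ* and 64.9, 48.7 and 64.4 CPM in WT at t2. *SST2*, which encodes the regulator that shuts off the pheromone-activated G protein, was at 50.1, 29.1 and 23.3 CPM in *psh1Δ* and 21.5, 18.0 and 25.9 CPM in WT at t0. At t2 it was at 75.6, 44.8 and 22.6 CPM in *psh1Δ* and 35.9, 23.9 and 27.0 CPM in WT. Both genes were higher in the *psh1Δ* libraries of batches 1 and 2 and lower in those of batch 3. *MFA1*, an a-factor gene, had log2 differences of 1.77 and 1.09 in batch 1, 0.90 and 1.16 in batch 2, and -0.53 and 0.10 in batch 3.

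Of the 26 measured mating and pheromone genes, 2 were called higher and none lower, 10 higher genes and 1 lower gene were at an unadjusted p of less than 0.05, and the median was 0.21. Over all genes, 0.0805% were called in each direction, and 6.54% were higher and 5.43% lower at that unadjusted p. Without batch 1 the higher genes numbered 3, without batch 3 they numbered 15. The list medians were 0.38 and 0.26 in the 2 pairs of batch 1, 0.16 and 0.25 in batch 2, and -0.07 and -0.21 in batch 3. The summed level of the 7 a-cell markers ranged from 512 to 957 CPM in *psh1Δ* and from 479 to 843 CPM in WT, with *BAR1* the marker at 0 in the 4 libraries named above. The absence of *BAR1* transcript moved with these genes, and its part in their difference was not tested. In the batch 3 pairs, with *BAR1* transcript on both sides, *AGA2* differed by 0.30 at t0 and 0.07 at t2.

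The genome holds matches to the pheromone response element, the motif bound by the transcription factor Ste12, before these genes. TGAAACA was searched on both strands of the 500 bases before each start codon, in the SacCer3 (R64) reference from RefSeq and not in W303. It was found before 11.6% of 6152 genes, and before *AGA2*, *AGA1*, *SST2*, *STE2*, *MFA1*, *FUS1* and *ASG7*. Matches were listed for these picked genes alone and not for the rest of the mating list. The match nearest to the start codon is shown for 4 genes of the pheromone pathway whose levels are given above or are a-cell markers, in capitals, 5′ to 3′ on the strand of the gene. The capitals read TGTTTCA where the match is on the other strand.
*AGA2*, chrVII:437015-437043, minus strand: aattaagggacTGTTTCAtaccttcagat
*AGA1*, chrXIV:703486-703514, plus strand: acataattttcTGAAACAatattaaaaca
*SST2*, chrXII:1041594-1041622, minus strand: atattcaatttTGAAACAatgatcccaat
*STE2*, chrVI:82372-82400, plus strand: taagtacatgaTGAAACAcatatgaagaa

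**Figure D3:**
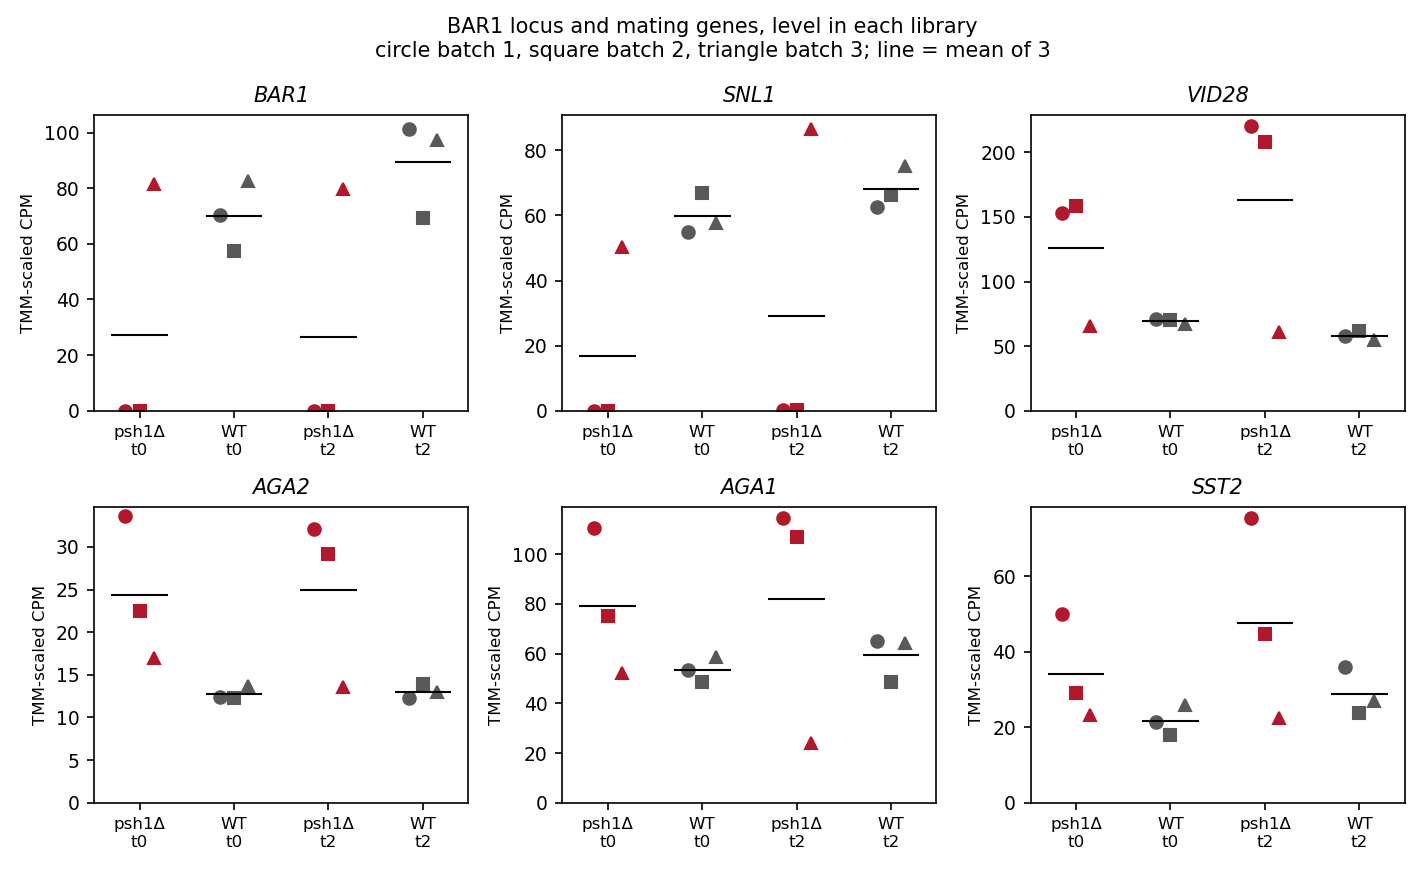
TMM-normalized CPM of *BAR1*, its neighbours *SNL1* and *VID28*, and the mating genes *AGA2*, *AGA1* and *SST2* in each library, with *psh1Δ* in red left of WT in grey, symbols for batches and lines for the mean of 3 libraries. In the *psh1Δ* strains of batches 1 and 2 (circles and squares) *BAR1* was at 0 and *VID28* between 153 and 221 CPM, whereas in the strain of batch 3 (triangles) both were near WT.

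In the list of carbohydrate storage and general stress genes, 5 of 28 measured members were higher at an adjusted p below 0.05. Of all genes, 0.322% were, and no member passed the minimum change. This list, like the others, was chosen with earlier results of these data known. Trehalose and glycogen are storage carbohydrates, and their genes share with stress protection genes the transcription factors Msn2 and Msn4. None was lower at an edgeR adjusted p below 0.05, and 22 were higher at an unadjusted p of less than 0.05, where 6.54% of all genes were. The fitted log2 differences ran from -0.06 (*GAC1*), 0.02 (*TPS3*) and 0.03 (*DDR2*) to 0.39 (*SIP18*, which did not pass), with a median of 0.23, and single pairs from -0.90 (*GAC1*, t2, batch 3) to 1.22 (*GRE1*, t0, batch 3). The number at an adjusted p below 0.05 was 0 with t0 and t2 summed per strain, with additive terms, without the block, with all 34 libraries and without batch 2, 1 without batch 1 and 2 without batch 3. It was higher in other alternatives, at 11 with DESeq2, 14 with the likelihood ratio test and 6 with limma voom. Without the genes of chromosome I it was 7, and without the t2 pair of batch 3 it was 6. The list median was positive in each of the 6 pairs, at 0.14, 0.23 and 0.30 in batches 1, 2 and 3 at t0 and 0.36, 0.05 and 0.31 at t2. Leaving out a batch gave 18 to 21 higher genes at an unadjusted p under 0.05, leaving out the t2 pair of batch 3 gave 23, and the fit without the batch block gave 0, with a median of 0.23. With time and batch as additive terms there were 7, and with all 34 libraries in 1 fit 5.

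*CTT1* (YGR088W, chromosome VII, 654634 to 656322), the cytosolic catalase, was at 94.6, 162 and 277 CPM in *psh1Δ* and 72.5, 120 and 218 CPM in WT at t0. At t2 it was at 745, 938 and 329 CPM in *psh1Δ* and 546, 774 and 272 CPM in WT. Batches differed more than genotypes did, and within each pair *psh1Δ* was higher, by 0.27 to 0.45 on the log2 scale. The fitted difference was 0.36 (standard error 0.05, edgeR adjusted p = 0.00591), and 0.36 on the sums per strain with an edgeR adjusted p of 0.0573. Without batch 1 or batch 2 the edgeR adjusted p was 0.0709 or 0.0847. *TSL1*, a subunit of trehalose synthase, was higher by 0.31 (edgeR adjusted p = 0.0428), and *GPH1*, the glycogen phosphorylase that releases glucose from glycogen, by 0.31 (edgeR adjusted p = 0.0397). *RTN2*, a reticulon of the endoplasmic reticulum, had a difference of 0.36 and *MSC1* of 0.37.

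Other genes higher in all 6 pairs at an adjusted p under 0.05 were of similar size. These were *GAD1* (glutamate decarboxylase, log2 difference 0.37), *NQM1* (a transaldolase, 0.37), *HOR7* (0.32), YKL151C (an enzyme that repairs damaged NADH, 0.30), *AAC1* (a mitochondrial ADP/ATP carrier, 0.35) and *CYC7* (the second form of cytochrome c, 0.43). Among the heat shock chaperones, 7 of 24 genes were higher and 1 lower at an unadjusted p under 0.05 (6.54% and 5.43% of all genes). None was called and the median was 0.05. The higher genes included *SSA1*, which is on chromosome I, raised in the *psh1Δ* strain of batch 1. Of its windows, 42.1% were unique. The list medians of single pairs ran from -0.08 (t2, batch 2) to 0.21 (t2, batch 3). The small heat shock protein gene *HSP42* had a difference of 0.26 and *HSP12* of 0.37, neither of which passed.

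The stress response element AGGGG, which Msn2 and Msn4 bind, was searched in the same 500 bases. It is a short motif, found before 34.1% of genes. There were 5 matches before *TSL1*, 3 each before *CTT1*, *NQM1* and *CYC7*, and 2 each before *HOR7*, *MSC1*, *GPH1* and YKL151C. *GAD1* and *RTN2* had 1 each and *AAC1* had 0. Matches were counted for these genes alone, picked for being higher in these data, and not for the rest of the list. Of all genes, 8.26% had 2 or more. The match nearest to the start codon is shown in capitals for 2 list genes that passed on adjusted p, *CTT1* and *TSL1*, on the strand of the gene, where CCCCT is the motif on the other strand.
*CTT1*, chrVII:654489-654517, plus strand: catttatcgtatCCCCTactgctacacgt
*TSL1*, chrXIII:70447-70475, plus strand: ggggtagaaccaAGGGGctagcacactca

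**Figure D4:**
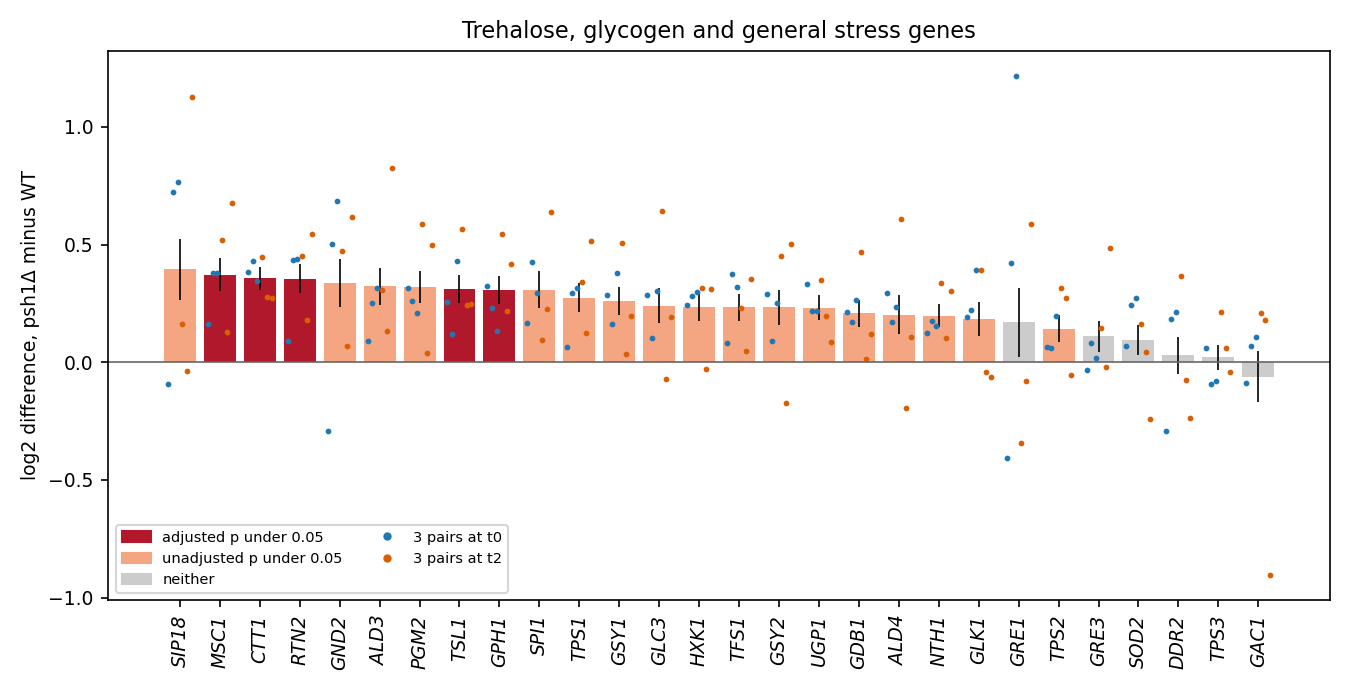
Fitted log2 difference (*psh1Δ* minus WT over both times, error bars 1 standard error) of the 28 trehalose, glycogen and general stress genes, with the 6 single pairs as dots (blue t0, orange t2). Of the bars, 27 are above 0 and 5 passed on adjusted p (dark red), and all of them lie below 0.585, the log2 value of a 1.5-fold change.

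Histone genes were measured because Psh1 acts on a histone variant. Of 9 genes for core histones and H1, none was called, *HTA1* passed on adjusted p, and 5 were higher and none lower at an unadjusted p under 0.05 (6.54% and 5.43% of all genes), with a median of 0.13. The 5 became 3 without batch 1 or without the block. *HTA1*, an H2A gene, was at 895, 621 and 868 CPM in *psh1Δ* and 635, 593 and 683 CPM in WT at t0, and at 710, 571 and 672 CPM in *psh1Δ* and 508, 483 and 537 CPM in WT at t2. It was higher in each pair and by 0.33 in the fit (standard error 0.06, edgeR adjusted p = 0.0395). On the sums per strain the edgeR adjusted p was 0.172, and no histone gene passed when any batch was left out. Its divergent partner *HTB1*, an H2B gene, was at 0.22, the linker histone gene *HHO1* at 0.21 and the H4 gene *HHF1* at 0.19, none of which passed. Between 78.7% and 95.4% of the windows of *HTA1*, *HTA2*, *HHT1*, *HHT2*, *HHF1* and *HHF2* were unique, so reads could be shared within these gene pairs. The H2A.Z gene *HTZ1* had a log2 difference of 0.18, and none of 25 genes for H2A.Z and its remodelers was called.

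Among the genes that act on CENP-A, *PSH1* alone was called. *CSE4* was at 29.3, 27.1 and 28.2 CPM in *psh1Δ* and 25.2, 27.4 and 26.0 CPM in WT at t0, and at 24.3, 22.3 and 27.8 CPM in *psh1Δ* and 22.1, 22.5 and 24.4 CPM in WT at t2. The difference of 0.11 (standard error 0.07, edgeR adjusted p = 0.62) was within the spread of the libraries. The 28 measured genes of CENP-A deposition and turnover had a median of 0.01, and the SUMO ligase gene *SIZ1* (-0.23) was the only other gene at an unadjusted p under 0.05. None of 42 kinetochore genes was called. An unadjusted p under 0.05 was reached by 3 higher and 4 lower genes (6.54% and 5.43% of all genes). They included *CEP3*, a subunit of the centromere-binding CBF3 complex, at -0.21 and the centromere-binding factor *CBF1* at 0.17, with the same sign in all 6 pairs.

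The median log2 difference was -0.06 over 61 ribosome biogenesis genes (8 lower and 1 higher at an unadjusted p under 0.05), -0.02 over 138 cytosolic ribosomal protein genes (3 lower, none higher) and 0.02 over 36 respiratory chain genes (2 higher, none lower). Of all genes, 5.43% were lower and 6.54% higher at that unadjusted p. The count of lower ribosome biogenesis genes was 23 without the t2 pair of batch 3, 15 without batch 3 and 1 without batch 1, and the higher gene, *MAK16*, is on chromosome I. None of these genes was called, nor any of 66 mitochondrial ribosomal protein genes, whose median was 0.0039, or of 8 auxotrophic marker genes. The 12 galactose genes had no call, and *PGM2*, the phosphoglucomutase that acts in galactose, trehalose and glycogen metabolism, was the only one at an unadjusted p under 0.05 (log2 difference 0.32). Lists for the proteasome, cyclins, cell separation, cell wall, phosphate, iron, sulfur, arginine and lysine gave no call. In the thiamine list, *PHO3*, a thiamine-repressible acid phosphatase, passed on adjusted p alone, with a difference of 0.58 (standard error 0.12, edgeR adjusted p = 0.0465), and *THI13* at -0.71 and *THI72* at -0.35 did not pass. Of the windows of *THI13*, 40.0% were unique.

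Further genes were lower in all 6 pairs by less than the minimum change. *JLP1*, a dioxygenase that releases sulfite from sulfonates, had a log2 difference of -0.48 (edgeR adjusted p = 0.0397) and *CSF1* of -0.27 (edgeR adjusted p = 0.0431). *INO1*, the inositol phosphate synthase, was at -0.40, the biotin precursor transporter *BIO5* at -0.40, *HOT13* at -0.40, the glycolipid anchor enzyme *GPI10* at -0.25 and *VBA1* at -0.23, and these did not pass. Over all genes, 214 (3.45%) were higher and 200 (3.22%) lower in all 6 pairs.

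Chromosome I was raised in the *psh1Δ* strain of batch 1. The median log2 difference from WT over its 89 genes with at least 10 counts on average was 0.84 at t0 and 0.80 at t2, a ratio of 1.80 and 1.74, and 88 and 86 of the genes were higher. In the 4 other pairs its median lay between -0.04 and 0.08. The other 15 chromosomes had medians between -0.03 and 0.07 in every pair. In the fit over both times, 56 of the 104 listed genes of chromosome I were higher at an unadjusted p under 0.05, against 6.54% of all genes. Among the 104, 1 gene, *GCV3*, passed on adjusted p. Without batch 1 the 56 became 9. The heat shock gene *SSA1* and *GCV3*, both on chromosome I, were among the 5 calls of the fit without batch 2. None of the 10 called genes is on chromosome I, and with its genes left out of the fit 12 genes were called, the 10 among them.

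**Figure D5:**
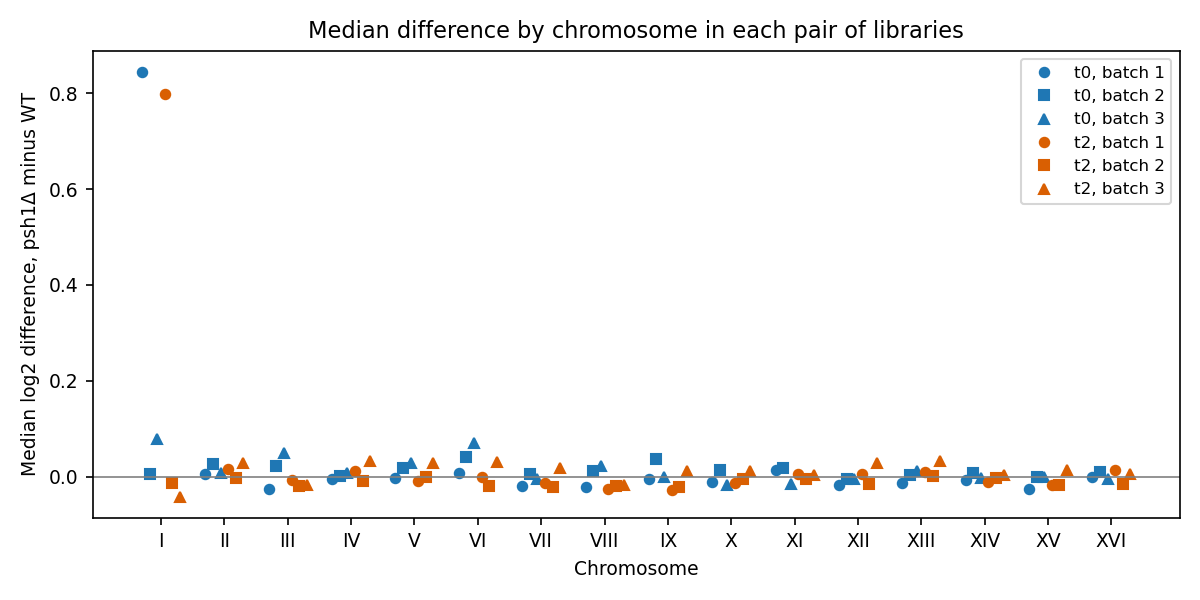
Median log2 difference (*psh1Δ* minus WT) over the genes of each chromosome in each pair of libraries, with symbols for batches and blue for t0 and orange for t2. Chromosome I in batch 1 stands at 0.84 (t0) and 0.80 (t2), and all other medians lie between -0.04 and 0.08.

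No gene passed the test of whether the genotypes differed by another amount at t2 than at t0. With edgeR's quasi-likelihood test 330 genes (5.31%) were at an unadjusted p of less than 0.05, 221 with a more positive difference at t2 (3.56%) and 109 with a more negative one (1.76%), and with DESeq2, which also called none, 51 were. At t0 alone, 2 genes were called (0.0322%), *PSH1* and *ADY2*, and at t2 alone only *PSH1* (0.0161%), with 832 (13.4%, 7.12% higher, 6.28% lower) and 339 genes (5.46%, 3.25% higher, 2.21% lower) at an unadjusted p of less than 0.05. *ADY2*, an acetate transporter gene, was at 110, 160 and 5.82 CPM in *psh1Δ* and 69.1, 103 and 4.90 CPM in WT at t0, a log2 fold change of 0.62 (edgeR adjusted p = 0.0194). At t2 it was at 32.2, 42.5 and 8.79 CPM in *psh1Δ* and 17.8, 56.8 and 10.2 CPM in WT, with no common direction. For *BNA7* the log2 differences at t0 and t2 were -0.71 and -0.65, for *PRM7* -0.61 and -0.77, for *AGA2* 0.93 and 0.91, and for *CTT1* 0.39 and 0.34. *DCG1* had -0.84 and -0.52, and *VID28* 0.80 and 1.33, with unadjusted interaction p values of 0.13 and 0.18 in edgeR.

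In other strains, *PSH1* deletion was compared at t0 between *psh1Δ pGAL-3Flag-CSE4* and *pGAL-3Flag-CSE4*, which share no library with the comparison above. With 2 strains a side, 3 genes were called (0.0483%): *PSH1*, *BAR1* and *SNL1*, and 237 (3.82%) were at an unadjusted p of less than 0.05, 1.82% higher and 2% lower. *BAR1* and *SNL1* were at 0 counts in both *psh1Δ pGAL-3Flag-CSE4* libraries and in the *pGAL-3Flag-CSE4* library of batch 3, so these calls rest on batch 2, where the *pGAL-3Flag-CSE4* library had 310 and 368 counts. Of the 9 genes called above besides *PSH1*, all 9 had the same direction in this fit and 7 in both pairs, where 55.1% and 28.6% of all genes did. For 5 of the 9 the unadjusted p was under 0.05, against 2.87% of all genes with the same direction: *PRM7*, *BNA7*, *IMD2*, *HXT13* and *VID28*. None of the 9 was called. In the batch 2 pair *BAR1* transcript differed along with *PSH1*, as in part of the pairs above. For *VID28*, *AGA2* and *ASG7* these differences cannot be told apart in that pair.

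Of the 4 genes called lower besides *PSH1*, 3 had an unadjusted p of less than 0.05 in these strains and *DCG1* did not. *PRM7* was at 30.8 and 33.7 CPM in *psh1Δ pGAL-3Flag-CSE4* and 52.7 and 61.4 CPM in *pGAL-3Flag-CSE4* (batches 2 and 3), a log2 difference of -0.82. *BNA7* was at 28.5 and 24.8 CPM in *psh1Δ pGAL-3Flag-CSE4* against 41.3 and 42.2 CPM in *pGAL-3Flag-CSE4*, a difference of -0.65. *IMD2* was at 17.6 and 26.3 CPM in *psh1Δ pGAL-3Flag-CSE4* and 28.9 and 43.2 CPM in *pGAL-3Flag-CSE4*, a difference of -0.71. *DCG1* was at 8.96 and 15.0 CPM in *psh1Δ pGAL-3Flag-CSE4* and 17.1 and 16.4 CPM in *pGAL-3Flag-CSE4*, so that it differed by -0.90 in batch 2 and -0.13 in batch 3. *SIR2* and *BSC1* had differences of -0.50 and -0.72, and *BNA2* of -0.71. In each of these 7 genes both pairs were lower.

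*HXT13* was at 129 and 154 CPM in *psh1Δ pGAL-3Flag-CSE4* and 32.1 and 93.1 CPM in *pGAL-3Flag-CSE4*, a log2 difference of 1.33. *AGA2* was at 21.1 and 28.3 CPM in *psh1Δ pGAL-3Flag-CSE4* and 9.41 and 37.4 CPM in *pGAL-3Flag-CSE4*, so it was higher in batch 2 and lower in batch 3, where both strains lacked *BAR1* transcript. *VID28* differed by 1.16 in batch 2 and by 0.23 in batch 3, and *ENA1* by 0.49 and -0.05. The list of trehalose, glycogen and general stress genes had a median of 0.32, against 0.0039 over all genes. Of its 28 members, 24 were above 0 and 4 below, and 15 were above 0 in both pairs. At an unadjusted p under 0.05, 9 members were higher and 0 lower, where 1.82% and 2% of all genes were. The values ran from -0.29 (*DDR2*), -0.23 (*SIP18* and *GND2*) and -0.18 (*ALD4*) to 0.85 (the hexokinase gene *HXK1*), with *CTT1* at 0.61, and *MSC1* and *RTN2* were below 0 in batch 3 (-0.12 and -0.08). Outside the list, *NQM1* was at -0.12 and *HSP12* at -0.05. *PHO3* was at 0.89 and *CYC7* at 0.64. These strains share batches with the *psh1Δ* and WT strains, and whether they share parents was not given in the sources used here.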

How the data were processed

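RNA-seq was performed on 34 libraries of 17 strains, 12 of which (*psh1Δ* and WT, 3 strains each, t0 and t2) were compared here. Per the labels and the study's methods, the authors prepared libraries with a kit that does not mark strand, sequenced single 50-base reads, aligned them to SacCer3 with TopHat 2.1.0, counted reads per gene with HTSeq 0.6.1, dropped low-count genes and tested groups with edgeR 3.12.0. The deposited tables hold raw counts, which were used as deposited, beside normalized CPM and the authors' fold changes, p-values and calls, which were not used. All 64 count columns were read, and the 30 that repeat a library were identical to the first. Without strand, reads of overlapping genes cannot be told apart. The submitters' processing notes also name hg19.

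Counts were normalized by TMM and fitted with edgeR 4.0.16 (quasi-likelihood, R 4.3.3) on the 12 libraries, with 6 blocks of time and batch and a genotype term. Called genes had a Benjamini-Hochberg adjusted p below 0.05 over 6209 genes and a change of at least 1.5-fold (0.585 on the log2 scale). Libraries of a batch were paired, since batch is stated in the labels. In 17 of 18 pairs of libraries of 1 batch, deviations from the group means correlated by over 0.1 (range 0.076 to 0.744). Some of these pairs are t0 and t2 of 1 strain and do not bear on the pairing by batch. The *psh1Δ* and WT pairs of the same time, which make the blocks, correlated by 0.337 to 0.744. Pair differences are of log2(CPM + 0.5). The scripts were tested on simulated counts. Over both times, 25 of 50 genes changed by 1.5-fold were called there, and 50 of 50 changed by 2-fold, with 2 false calls. A 1.5-fold change lies at the minimum for a call, so the first count reflects that limit. It does not measure how often such changes are detected, and smaller changes could be missed. Only genes with a mean of at least 50 counts were changed, and t0 and t2 of a strain were drawn independently. Alternatives used DESeq2 1.42.0, limma 3.58.1 and the settings listed in the closing section. Replicates are separate strains.

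Named genes were *PSH1*, the called genes, the 10 higher and 10 lower genes with the smallest unadjusted p among those not called with 1 sign in all 6 pairs and at least 10 counts, genes called in the other comparisons, genes within 5 kb of *PSH1*, and up to 4 genes of each list. Neighbours of *BAR1*, *SIR2* and *BNA7*, the *IMD* paralogs, and all other genes named outside this rule were added after their values were seen. The members and lists were chosen with earlier results of these data known. Of 5700 genes matched by systematic name, 99.88% had the same coordinates in the RefSeq R64 annotation. Intervals and floors cover counting error only. Sequences of some motif matches are not reported here.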

Additional observations from a re-analysis of the deposited data

How the results depend on the processing

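The count of called genes over both times (10, 5 higher and 5 lower) was 24 with the likelihood ratio test, 29 without a minimum change, 3 with t0 and t2 summed per strain, and 4 (*PSH1*, *PRM7*, *BNA7* and *DCG1*) with all 34 libraries in 1 fit. With time and batch as additive terms it was 1. Without the replicate block, so that the batch pairing is not used, it was 1 (*PSH1*), with 265 genes at an unadjusted p under 0.05. Leaving out 1 batch gave 5 to 15 calls, the 5 without batch 2 being *PSH1*, *PRM7*, *SSA1*, *GCV3* and *HXT10*, and 2 of them were among the 10. DESeq2 called 11, of which 3 were higher and 8 lower and 8 were among the 10, limma voom with a strain correlation of -0.045 called 10 with 9 shared, DESeq2's size factors gave 11 and the filter of 10 counts in 3 libraries 9. Fits added after the data were seen, without the *BAR1* locus and *VID28* or without the t2 pair of batch 3, called 10 each. None of the 10 called genes and the next 10 on each side changed sign in these alternatives.

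The difference between times gave 0 calls, and 1 (YDR131C, named after its value was seen) by likelihood ratio. It was 0 with DESeq2, without the replicate block, with strain as a block and with each batch left out. At t0 the 2 calls became 1 (*PSH1*) without the replicate block, 23 by likelihood ratio and 0 with DESeq2, which gave an adjusted p to only 1394 genes. Leaving out 1 batch at t0 gave 3 to 41 calls, most without batch 2. At t2 the 1 call became 11 with the likelihood ratio test and 1 to 11 with a batch left out, most without batch 3. In the *pGAL-3Flag-CSE4* strains the 3 calls became 1 without the replicate block and 18 by likelihood ratio, and DESeq2 also called 3, of which only *PSH1* was shared. Leaving out a batch was not run there, with 2 strains a side. The cause of these shifts was not tested.

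Of the 3 *psh1Δ* strains, 1 had raised counts over chromosome I and 2 lacked *BAR1* transcript.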
